A study of Mus musculus with 27 samples.

Results

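The unfolded protein and ATF4 stress genes examined here are Atf4, Atf3, Ddit3, Trib3, Asns, Chac1, Xbp1, Hspa5, Herpud1, and Atf6. They were taken by gene symbol from a table of 54532 genes in 27 libraries, and the 10 symbols matched 11 entries. The additional entry is a second Ddit3 gene model of 105 bases, which lies inside the first one. It was at 0 in all 27 libraries, where 3 fragments would have given 1.10 to 1.94 FPKM. How fragments in the shared bases were assigned is not given in the sources used here, so Ddit3 below is the longer model (ENSMUSG00000025408, chr10:127290774-127296288 on GRCm38). The other 10 entries all passed the filter on low values, a library mean of 0.5 FPKM or more, which left 14932 genes for testing.

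Mouse embryonic fibroblasts (MEFs) of 3 genotypes were sampled during their conversion to induced neurons (iNs), to ask how circadian regulators act in cell reprogramming. WT, Per1-/-, and Per2-/- MEFs came from embryos without head and heart, at the first passage, with the cells of 4 embryos pooled in a dish. The knockout strains carry the Per1tm1Drw and Per2tm1Drw alleles on a B6.129 background, and the sex of the embryos was not determined. All groups, WT included, received on day -3 lentiviruses with doxycycline-inducible reprogramming genes and the transactivator that doxycycline switches on. RNA was taken on day 0 before induction and on days 2 and 4 of induction, with 3 replicates for each genotype and day. Doxycycline was added on day 0 together with a change from medium with serum to a serum-free medium. In comparisons with day 0, induction and the change of medium therefore cannot be told apart. Over the days Per1 was at 4.76 to 6.33 FPKM in WT and 3.23 to 4.96 FPKM in Per1-/- libraries. Per2 was at 0.817 to 1.97 FPKM in WT and 1.87 to 3.30 FPKM in the libraries labelled Per2-/-, which goes against that label at the level of the whole transcript, so these libraries are named by their label. The Per1 ranges of WT and Per1-/- libraries overlapped as well. FPKM per gene do not show which exons are present. The paper reports western blots in which MEFs of each knockout had lost the matching protein, PER1 or PER2.

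When unfolded proteins gather in the endoplasmic reticulum (ER), the sensors IRE1, PERK, and ATF6 switch on the unfolded protein response. IRE1 splices the Xbp1 mRNA, ATF6 is cut into a transcription factor, and both raise ER chaperones and degradation factors, while PERK phosphorylates the translation factor eIF2alpha. This slows translation in general but lets ATF4 be made, and ATF4 is also made when the related kinases sense amino acid shortage, heme shortage, or double-stranded RNA. ATF4 then raises genes of amino acid supply and, with persistent stress, the CHOP factor encoded by Ddit3. FPKM per gene counts spliced and unspliced Xbp1 together, and says nothing of how much ATF4 is translated or ATF6 is cut.

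The DNA letters these factors are known to read were searched in the promoter windows that RefSeq gives on GRCm38.p6, from 250 bases before to 50 bases after the start of a gene, on both strands. Of the 10 genes, 9 had a window. The ER stress element (CCAAT, any 9 bases, CCACG) was in 39 of 32851 windows (0.119%), and among the stress genes it was in that of Hspa5. Its second form, ATTGG, any base, and CCACG, was in 12 windows (0.0365%), Herpud1 among them. The XBP1 core ACGTGG was in 8.31% of windows, and its one match here, in Herpud1, overlaps the second ER stress element. The core of the amino acid response element, TGATGNAA, was in 3.97% of windows and in those of Asns, Atf3, Chac1, Herpud1, and Trib3, while the cyclic AMP response element TGACGTCA was in 1.79% of windows and in none of the 9. No searched motif was found in the windows of Atf4, Ddit3, and Xbp1. The stretches that hold the matches are shown because they set the genes with ER stress letters beside those with amino acid letters. Capitals mark the matches, and each stretch runs 5′ to 3′ on the strand of its gene.
Hspa5, chr2:34771994-34772073, plus strand: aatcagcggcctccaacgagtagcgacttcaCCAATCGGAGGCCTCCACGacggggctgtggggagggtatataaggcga
Herpud1, chr8:94386303-94386402, plus strand: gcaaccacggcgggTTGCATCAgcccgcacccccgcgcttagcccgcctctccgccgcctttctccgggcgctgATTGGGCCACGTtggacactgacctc
Asns, chr6:7693210-7693289, minus strand: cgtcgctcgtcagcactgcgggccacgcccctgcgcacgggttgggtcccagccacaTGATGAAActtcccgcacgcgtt
Chac1, chr2:119351013-119351092, plus strand: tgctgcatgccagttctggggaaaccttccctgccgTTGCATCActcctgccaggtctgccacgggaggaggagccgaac
Atf3, chr1:191183400-191183479, minus strand: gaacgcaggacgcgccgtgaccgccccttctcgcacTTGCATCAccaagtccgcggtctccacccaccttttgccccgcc
Trib3, chr2:152344028-152344057, minus strand: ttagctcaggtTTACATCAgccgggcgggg

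Counted from the start that RefSeq gives, the match lies at bases -65 to -47 in Hspa5, at -52 to -42 for the ER stress element and -112 to -105 for the amino acid core in Herpud1, at -23 to -16 in Asns, at -193 to -186 in Chac1, and at -110 to -103 in Atf3. That of Trib3 lies past the RefSeq start, at bases 15 to 22. Of 80 other genes of the pathway lists used below that had a window, 9 held the ER stress element and 13 the amino acid core. A match is a run of letters and not a measured binding site.

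By the deposited annotation on GRCm38, the genes lie apart from one another, among them Hspa5 at chr2:34771970-34777547, Chac1 at chr2:119351229-119354381, Trib3 at chr2:152337422-152344032, Atf4 at chr15:80255184-80257541, and Xbp1 at chr11:5520659-5525893. The promoter window of Atf3 lies inside its annotated span, chr1:191170296-191218039. The annotated starts also differ from those of RefSeq for other genes. By the annotation the matches of Hspa5 and Asns lie inside the gene, and that of Trib3 lies before its start.

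Levels per length differed widely between the genes. Hspa5, which encodes the ER chaperone BiP, had the highest mean over the 27 libraries with 205 FPKM, followed by Atf4 with 98.9 FPKM. Asns, the asparagine synthetase, had a mean of 41.1 FPKM, Xbp1 29.8 FPKM, Herpud1, a membrane protein of ER-associated degradation, 27.3 FPKM, and Ddit3 18.1 FPKM. Below them were Trib3, a pseudokinase that binds ATF4, with 16.9 FPKM, Chac1, which degrades glutathione, with 12.3 FPKM, Atf6 with 9.26 FPKM, and Atf3, a stress-induced repressor and activator of the ATF family, with 3.47 FPKM. The range of Atf4 ended below that of Hspa5, while the ranges of Xbp1, Herpud1, and Asns overlapped one another, as did those of Ddit3, Trib3, and Chac1. The fragments behind a value ranged from 62 to 349 for Atf3 and from 12009 to 27098 for Hspa5. The highest library was 4.84 times the lowest for Atf3, 4.26 times for Ddit3, 4.19 times for Trib3, and 1.37 times for Atf6.

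**Figure D1:**
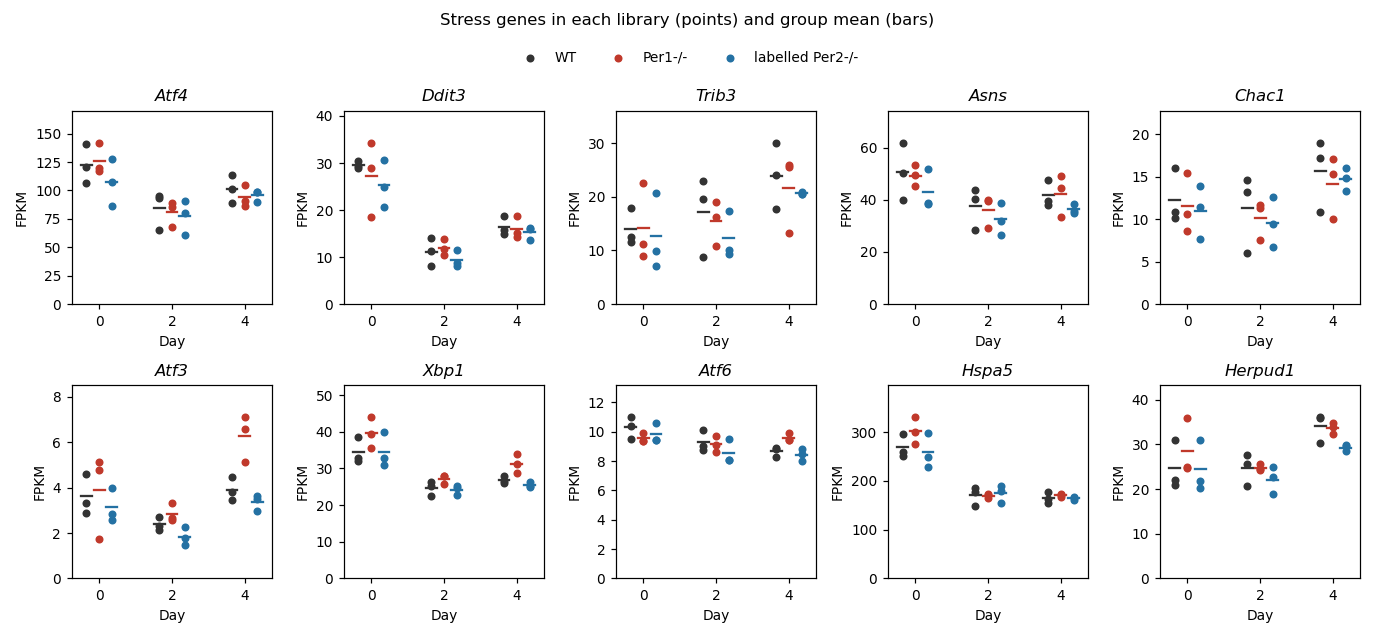
FPKM (y axis of each panel, from 0) of the 10 genes on days 0, 2, and 4 (x axis), with 1 point per library, a bar at the mean of 3 replicates, and colors for WT, Per1-/-, and the Per2-/- label. Ddit3 and Hspa5 are lower on day 2 than on day 0 in every genotype, and the 3 Per1-/- points of Atf3 on day 4 lie above all others of that day.

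From day 0 to day 2, Ddit3 and Hspa5 fell in WT cells and none of the 10 genes rose. Ddit3 fell to 0.370 times and Hspa5 to 0.634 times its day 0 level. Atf4 and Xbp1 were also lower with FPKM, by less than the fold change required of a called gene, and had log2 fold changes of -0.11 and -0.044 when FPKM were rescaled to a common sum per library (adjusted p = 0.566 and 0.753, limma). On that common sum Ddit3 alone of the 10 was called. With FPKM the other 6 genes, Asns, Atf3, Trib3, Chac1, Herpud1, and Atf6, did not pass the test. Calls required an adjusted p no higher than 0.05 (limma, Benjamini-Hochberg over all tested genes) and a log2 fold change of 0.58 or more in either direction. The 2 called genes of 10 stand beside 40.5% of all tested genes called in the same comparison, and the median log2 fold change of the 10 was -0.45 where that of all genes was -0.01. The samples are whole cultures, in which fewer cells of a type and less RNA per cell cannot be told apart. The summed neuron markers went from 68.3 to 73.0 FPKM on day 0 to 123 to 158 FPKM on day 2 in WT, and their part in these changes was not tested.

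Ddit3, the CHOP factor, was at 29.0, 29.3, and 30.4 FPKM in the WT libraries of day 0, at 11.3, 14.0, and 8.14 FPKM on day 2, and at 15.7, 18.7, and 14.8 FPKM on day 4. In Per1-/- cells it was at 34.3, 18.6, and 29.0 FPKM, then at 10.4, 11.7, and 13.9 FPKM, and then at 14.3, 15.1, and 18.7 FPKM. In the libraries labelled Per2-/- it was at 24.8, 30.7, and 20.7 FPKM, then at 11.6, 8.06, and 8.73 FPKM, and then at 13.7, 15.9, and 16.2 FPKM. In each genotype all libraries of day 2 lay below those of day 0 and below those of day 4. How many of all tested genes lay apart between days in this way, here and below, was not counted. Those of day 4 stayed below day 0 in WT and with the Per2-/- label. In Per1-/- days 0 and 4 overlapped, with 18.6 FPKM in day 0 replicate 2 and 18.7 FPKM in day 4 replicate 3. The log2 fold change from day 0 to day 2 was -1.43 ± 0.207 (SE, n = 3 against 3, adjusted p = 4.84e-06, limma) in WT, -1.14 (adjusted p = 7.61e-05, limma) in Per1-/-, and -1.42 (adjusted p = 6.95e-06, limma) in the labelled Per2-/- libraries. Under every alternative, a rescaling to a common sum included, the fall of Ddit3 kept its direction and was called.

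Hspa5, the BiP chaperone that binds unfolded proteins and holds the sensors inactive, was at 259, 252, and 296 FPKM in WT on day 0, at 186, 177, and 149 FPKM on day 2, and at 164, 178, and 155 FPKM on day 4. In Per1-/- cells it was at 331, 301, and 275 FPKM, then at 165, 173, and 171 FPKM, and then at 168, 174, and 171 FPKM. In the libraries labelled Per2-/- it was at 249, 298, and 229 FPKM, then at 189, 156, and 179 FPKM, and then at 160, 168, and 165 FPKM. Day 0 stood above both later days without overlap in each genotype, and days 2 and 4 overlapped. The log2 fold change from day 0 to day 2 was -0.66 (SE 0.101, adjusted p = 1.04e-05, limma) in WT, and -0.83 (adjusted p = 5.92e-07, limma) in Per1-/-. With the Per2-/- label it was -0.56 (adjusted p = 7.34e-05, limma), which is short of the fold change required. After a rescaling of FPKM to a common sum Hspa5 was not called in any genotype. Its log2 fold change there was -0.22 in WT (adjusted p = 0.0607, limma) and -0.23 with the Per2-/- label (adjusted p = 0.0559, limma). In Per1-/- it was -0.43 (adjusted p = 0.000904, limma), short only of the fold change required. The rescaling raised the median of all tested genes as well, here and for the genes below. With FPKM and without WT day 2 replicate 3, the value of Hspa5 was -0.56 in WT.

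Atf4 was at 120, 106, and 141 FPKM in WT on day 0, at 93.7, 95.0, and 65.1 FPKM on day 2, and at 102, 114, and 89.3 FPKM on day 4. In Per1-/- cells it was at 142, 120, and 117 FPKM, then at 67.5, 85.7, and 89.0 FPKM, and then at 86.5, 90.5, and 105 FPKM. In the libraries labelled Per2-/- it was at 86.1, 128, and 107 FPKM, then at 91.0, 60.5, and 80.6 FPKM, and then at 89.9, 98.7, and 98.8 FPKM. Days 0 and 2 did not overlap in WT and Per1-/-, and overlapped with the Per2-/- label. Atf4 fell in Per1-/- cells (log2 fold change -0.65, SE 0.171, adjusted p = 0.00264, limma), and the values of -0.54 in WT (adjusted p = 0.00942, limma) and -0.47 with the Per2-/- label (adjusted p = 0.0239, limma) were short of the fold change required. Without Per1-/- day 0 replicate 1 its value was -0.56, and without Per1-/- day 2 replicate 1 it was -0.53, so that the call was lost. It was also lost on the common sum, with -0.26, where WT had -0.11 and the Per2-/- label -0.14.

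Xbp1, which encodes the factor made from the spliced mRNA, was at 32.8, 32.0, and 38.5 FPKM in WT on day 0, at 26.4, 25.2, and 22.5 FPKM on day 2, and at 26.0, 27.9, and 26.6 FPKM on day 4. In Per1-/- cells it was at 44.0, 39.3, and 35.7 FPKM, then at 25.7, 28.0, and 28.0 FPKM, and then at 34.0, 28.8, and 31.2 FPKM. In the libraries labelled Per2-/- it was at 32.8, 40.0, and 30.9 FPKM, then at 25.1, 22.7, and 24.7 FPKM, and then at 24.9, 26.3, and 25.2 FPKM. Day 2 lay below day 0 without overlap in each genotype. The log2 fold changes were -0.48, -0.54, and -0.51 in the order WT, Per1-/-, and Per2-/- label, each with an adjusted p below the threshold (0.000232, 6.88e-05, and 0.000143, limma) and each short of the fold change required. On the common sum they were -0.044, -0.14, and -0.18, none of which passed the threshold (adjusted p = 0.753, 0.289, and 0.194, limma).

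Asns had log2 fold changes from day 0 to day 2 of -0.43 in WT (adjusted p = 0.055, limma), -0.46 in Per1-/- (adjusted p = 0.0441, limma), and -0.40 with the Per2-/- label (adjusted p = 0.0767, limma), and on the common sum of -0.00030, -0.062, and -0.075 in the same order. Its values were 39.8 to 61.9 FPKM in WT on day 0, 28.6 to 43.8 FPKM on day 2, and 38.0 to 47.5 FPKM on day 4. Atf3 had values of -0.56 (adjusted p = 0.0921, limma) in WT and -0.31 (adjusted p = 0.36, limma) in Per1-/-, and fell with the Per2-/- label (log2 fold change -0.75, SE 0.283, adjusted p = 0.0293, limma). The value of Atf3 in Per1-/- turned to 0.082 on the common sum and was -0.79 without Per1-/- day 0 replicate 1, whose 1.75 FPKM lay far below the 5.15 and 4.78 FPKM of replicates 2 and 3. The Atf3 call with the Per2-/- label was lost without day 0 replicate 1 (-0.57), without day 2 replicate 1 (-0.73), and without day 2 replicate 3 (-0.61). It was also lost on the common sum (-0.44, adjusted p = 0.181, limma), with a pseudocount of 1 (-0.55), with no filter on low values (adjusted p = 0.0618, limma), and with voom weights (adjusted p = 0.0602, limma).

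Trib3, Chac1, Herpud1, and Atf6 were not called from day 0 to day 2 in any genotype, and the signs of most of their values turned with the scaling or with 1 library. Trib3 was at 11.6, 12.6, and 17.9 FPKM in WT on day 0 and at 19.6, 23.0, and 8.74 FPKM on day 2, so that the spread on day 2 covered the whole range of day 0. Its log2 fold changes were 0.20 in WT, 0.19 in Per1-/-, and 0.04 with the Per2-/- label, with a standard error of 0.411, and on the common sum 0.63, 0.59, and 0.37. Those of Chac1 were -0.19, -0.17, and -0.20, and on the common sum 0.24, 0.22, and 0.13. Herpud1 had 0.02, -0.18, and -0.13, and on the common sum 0.45, 0.22, and 0.20, the first with an adjusted p of 0.0277 (limma) but short of the fold change required. Atf6, the sensor itself, had -0.15, -0.06, and -0.20, and on the common sum 0.28, 0.33, and 0.13.

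The calls from day 0 to day 2 in the other genotypes were 3 of 10 in Per1-/- (Atf4, Ddit3, and Hspa5) beside 39.6% of all tested genes, and 2 of 10 with the Per2-/- label (Atf3 and Ddit3) beside 35.5%. The medians of the 10 were -0.38 and -0.44, where all genes had medians of -0.01. The count of 2 in WT was 4 without WT day 0 replicate 2, with Atf4 (-0.64) and Asns (-0.59) added, and 1 without WT day 2 replicate 3. With the Per2-/- label it was 4 without day 0 replicate 3, with Xbp1 (-0.58) and Hspa5 (-0.65) added.

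**Figure D2:**
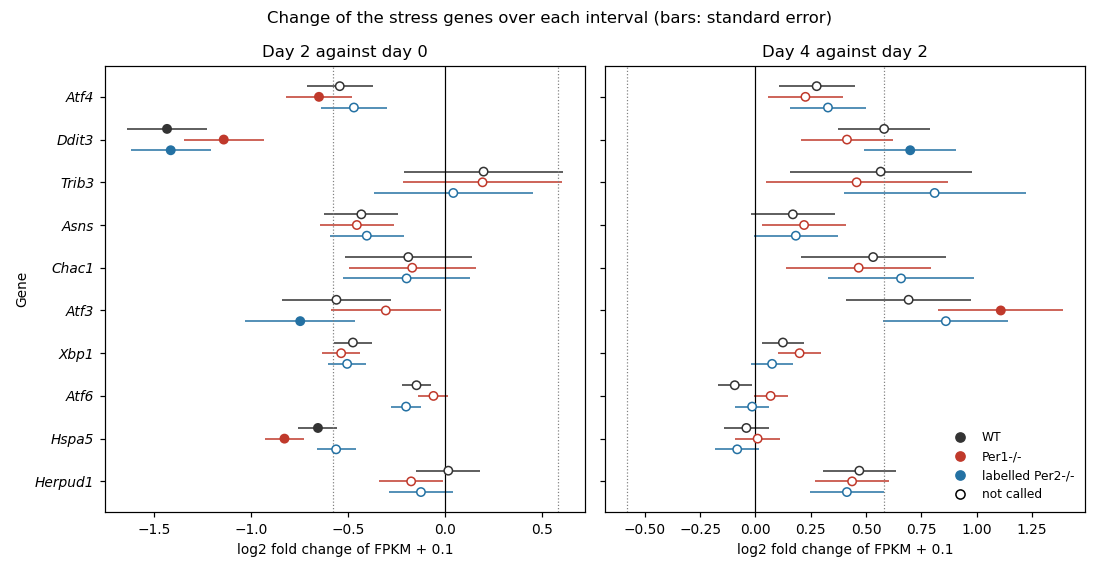
Log2 fold change of FPKM + 0.1 (x axis) of each gene (y axis) from day 0 to day 2 (left) and from day 2 to day 4 (right), with bars for 1 standard error, colors for the genotypes, filled points for called genes, and dotted lines at a size of 0.58. Ddit3 lies farthest to the left, near -1.43 in WT, and most points of the right panel lie above 0 without being called.

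From day 2 to day 4 most of the 10 genes had positive log2 fold changes that did not pass the test. In WT none was called, with 3.21% of all tested genes called, and 0 of the 10 were called with voom weights. At an unadjusted p under 0.05 were 3 of the 10 genes, beside 2977 of 14932 tested genes (limma). In Per1-/- Atf3 alone of the 10 rose, beside 2.44% of all tested genes called in either direction (206 higher and 158 lower). With the Per2-/- label Ddit3 alone rose, beside 4.06% (346 higher and 260 lower). The fit with a block takes libraries of a genotype with the same replicate number as a pair. It called 829 genes in place of 479 in WT and 730 in place of 364 in Per1-/-, where the numbers were taken to pair the libraries. The counts among the 10 stayed at 0 and 1. Hspa5 had values near 0, -0.04, 0.01, and -0.08 in the order WT, Per1-/-, and Per2-/- label, the second -0.12 on the common sum. The medians of the 10 were 0.37, 0.32, and 0.37, beside medians of all genes from -0.02 to -0.01.

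Atf3 was at 2.71, 2.12, and 2.32 FPKM in WT on day 2 and at 3.83, 3.44, and 4.47 FPKM on day 4. In Per1-/- cells it was at 2.65, 2.55, and 3.34 FPKM on day 2 and at 5.12, 6.57, and 7.11 FPKM on day 4. In the libraries labelled Per2-/- it was at 1.76, 2.26, and 1.47 FPKM and then at 2.96, 3.52, and 3.62 FPKM. Day 4 was above day 2 without overlap in every genotype. Atf3 rose in Per1-/- cells (log2 fold change 1.11, 2.16 times, SE 0.283, adjusted p = 0.0308, limma), and had 0.69 in WT (adjusted p = 0.172, limma) and 0.86 with the Per2-/- label (adjusted p = 0.0682, limma). The rise in Per1-/- was not called when day 2 replicate 1, 2, or 3 or day 4 replicate 2 or 3 was left out, with log2 fold changes of 1.06, 1.04, 1.22, 1.07, and 1.01. The summed macrophage markers moved the same way in Per1-/-, from 576 to 1239 FPKM on day 2 to 1168 to 2079 FPKM on day 4, and their part in the result was not tested.

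Ddit3 rose with the Per2-/- label (log2 fold change 0.70, 1.62 times, SE 0.207, adjusted p = 0.0459, limma), and had 0.58 in WT (adjusted p = 0.111, limma) and 0.41 in Per1-/- (adjusted p = 0.272, limma). Without any 1 of 5 libraries, day 2 replicates 2 and 3 and day 4 replicates 1, 2, and 3, the call of Ddit3 was lost, with log2 fold changes of 0.59, 0.65, 0.77, 0.67, and 0.65. The blocked fit called Atf3 besides Ddit3 with this label (0.86, adjusted p = 0.0301, limma). The libraries of the same number had r of 0.138, 0.282, and 0.0353 there, so not every pair was over 0.1.

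Trib3 reached 24.2, 30.1, and 17.7 FPKM in WT on day 4, 13.2, 26.0, and 25.6 FPKM in Per1-/-, and 21.0, 20.5, and 20.5 FPKM with the Per2-/- label. Its log2 fold changes from day 2 were 0.57, 0.46, and 0.81. Chac1 had 0.53, 0.47, and 0.66, and Herpud1 0.47, 0.44, and 0.41, the adjusted p of Herpud1 being 0.107 in WT (limma). All libraries of Herpud1 on day 4 lay above those of day 2 in each genotype, at 30.2 to 36.1 FPKM in WT against 20.8 to 27.7 FPKM. The share of all tested genes apart between these days was not counted. Atf4 had 0.28, 0.23, and 0.33, and Asns 0.17, 0.22, and 0.18. Smaller values were 0.12, 0.20, and 0.08 for Xbp1, the last -0.0046 on the common sum, and -0.09, 0.07, and -0.02 for Atf6, the second -0.057 on the common sum.

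The knockout question was asked of each day, and no stress gene was called between genotypes on any day. Per1-/- against WT called 0 of 10 on days 0, 2, and 4, beside 0.0134%, 0.0067%, and 0.0268% of all tested genes. Per1-/- against the Per2-/- label called 0 of 10, beside 0.0201%, 0.0737%, and 0.556%, and the Per2-/- label against WT called 0 of 10, beside 0.0067%, 0.0268%, and 0.0067%. At an unadjusted p under 0.05 there were 1, 0, and 2 of the 10 for Per1-/- against WT, 2, 1, and 3 against the Per2-/- label, and 0, 0, and 0 for the label against WT, in limma, and voom weights called none. Of all 14932 tested genes, 719, 410, and 924 were under 0.05 for Per1-/- against WT (limma). There were 892, 1228, and 1974 against the Per2-/- label, and 588, 429, and 511 for the label against WT. The comparisons share libraries, so their counts are not separate evidence. Of the 14932 tested genes, the fit called 2, 1, and 4 for Per1-/- against WT on days 0, 2, and 4. With so few calls among all genes, 0 of 10 cannot show that the stress genes were equal between genotypes. The paper reports many genes changed between Per1-/- cells and the other genotypes, by a different test on read counts with the same thresholds. That test was not repeated here.

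On day 4 Atf3 had the largest log2 fold changes of the 10 genes between Per1-/- and the other genotypes. The 3 Per1-/- libraries (5.12 to 7.11 FPKM) lay above all WT (3.44 to 4.47 FPKM) and labelled Per2-/- libraries (2.96 to 3.62 FPKM). Its log2 fold change was 0.66 against WT (SE 0.283, adjusted p = 0.736, limma) and 0.87 against the label (adjusted p = 0.165, limma), and on day 2 it was 0.24 and 0.62. The macrophage markers summed to 1168 to 2079 FPKM in the Per1-/- libraries of day 4, 550 to 1036 FPKM in WT, and 425 to 762 FPKM with the Per2-/- label, with 15 of 15 markers at 0.5 FPKM or more in each, and their part in the Atf3 difference was not tested.

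Xbp1 and Atf6 had smaller values, which were nearer to 0 on the common sum. On day 4 Xbp1 was at 28.8 to 34.0 FPKM in Per1-/- against 26.0 to 27.9 FPKM in WT, a log2 fold change of 0.22 (adjusted p = 0.764, limma) that was 0.084 on the common sum, and it was 0.30 against the label (adjusted p = 0.165, limma), or 0.21 on the common sum. Xbp1 already had 0.20 against WT on day 0. Atf6 was at 9.44 to 9.91 FPKM in Per1-/- on day 4 against 8.29 to 8.91 FPKM in WT, a log2 fold change of 0.14 (adjusted p = 0.866, limma) that was 0.011 on the common sum. Counting groups that do not overlap, 3 of the 10 genes (Atf3, Atf6, and Xbp1) lay wholly above WT in Per1-/- on day 4 and 0 below. None lay above or below on days 0 and 2. Of all tested genes 14.6% were apart on day 4, and 5.11% and 10.3% on days 0 and 2. These shares and those that follow count genes apart in either direction. Against the label, Atf3, Atf6, Herpud1, and Xbp1 lay above on day 4 (19.2% of genes), Atf3 and Xbp1 on day 2 (16.1%), and none on day 0 (6.94%). Herpud1 lay below WT with the Per2-/- label on day 4 (10.2%), and no gene was apart on days 0 and 2 (7.6% and 9.98%).

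The libraries labelled Per2-/- had lower values than WT for 9, 9, and 10 of the 10 genes on days 0, 2, and 4. None of them was called or had an unadjusted p under 0.05 (limma). The lowest value was that of Trib3 on day 2, with -0.42, and those of day 4 ran from -0.21 to -0.011. Most of the 10 genes moved together within libraries, so their signs are not separate results. The share of all tested genes with lower values was not counted. Differences between genotypes in the change over time were tested directly as well, and none of the 10 passed in any of 4 such tests, nor at an unadjusted p under 0.05 or with voom weights. All tested genes gave 0%, 0%, 0%, and 0.0067% of calls there, with 306, 182, 434, and 194 genes at an unadjusted p under 0.05 in limma, and 0 calls with voom weights. The fall of Ddit3 differed by 0.29 (SE 0.292) and that of Hspa5 by -0.17 (SE 0.142) between Per1-/- and WT on the log2 scale. The change of Atf3 from day 2 to day 4 differed by 0.42 (SE 0.4) between the same genotypes. That of Trib3 differed by 0.24 (SE 0.581) between the Per2-/- label and WT.

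The other genes of the pathway were taken from 8 lists. Counts of a list are given with FPKM and on the common sum, because the common sum moved the median log2 fold change of all genes from day 0 to day 2 in WT from -0.01 to 0.42. From day 0 to day 2, 51.3% of the calls were higher with FPKM and 81.8% on the common sum in WT, 52.5% and 81.9% in Per1-/-, and 52.7% and 78.6% with the Per2-/- label. From day 2 to day 4 these shares were 50.5% and 38.7%, 56.6% and 24.2%, and 57.1% and 37.7%. With FPKM the median gene stood near 0, so the values below are already relative to it.

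Genes that charge tRNA with amino acids, many of them known ATF4 targets, fell in WT cells from day 0 to day 2 in 9 of 13 (1 of 13 on the common sum), and none rose. Nars, the asparaginyl-tRNA synthetase, had the lowest value with -1.16, from 154 ± 15.3 to 69.4 ± 12.6 FPKM (SD, n = 3), and Cars had -0.83. Of the genes of amino acid synthesis and transport 6 of 17 fell and 2 rose, against 2 and 6 on the common sum. Slc7a1, the arginine and lysine transporter, had -1.07 and Phgdh, the first enzyme of serine synthesis, -1.03, while Pycr1, of proline synthesis, had 0.94 and Gpt2, an alanine aminotransferase, 0.76. Gpt2 was not called without WT day 0 replicate 1 (0.66) or 2 (0.63), or without WT day 2 replicate 1 (0.68) or 2 (0.63).

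Of the kinases, the phosphatase subunits, and the subunit of eIF2alpha signaling 2 of 7 fell (2 rose and 1 fell on the common sum). Eif2s1, which encodes eIF2alpha itself, had -1.12, and Ppp1r15a, the stress-induced phosphatase subunit that ends eIF2alpha phosphorylation, -0.90. Of the partners and effectors of ATF4 and CHOP 7 of 16 fell and 1 rose (6 and 3 on the common sum). Nupr1, a stress-induced chromatin protein, fell by 2.20 on the log2 scale, from 35.8 ± 12.1 to 7.76 ± 2.69 FPKM (SD, n = 3), and Cebpb, a partner of both factors, by 1.66. The one that rose was Bcl2l11, the cell death protein BIM, with 1.58, from 2.84 ± 0.363 to 8.67 ± 0.699 FPKM (SD, n = 3).

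Of the ER chaperones and folding enzymes 7 of 20 fell and 1 rose with FPKM, and 0 fell and 2 rose on the common sum. Calr, the chaperone calreticulin, had -0.86, from 536 ± 19.3 to 294 ± 13.2 FPKM (SD, n = 3), and Manf, a secreted factor of the unfolded protein response, -0.83. Ero1lb, an oxidase of protein folding, had 0.68, and was not called without WT day 0 replicate 3 (0.54) or WT day 2 replicate 3 (0.52). Of ER-associated degradation 3 of 15 fell and 0 rose, against 0 and 4 on the common sum. Selenos had -0.62 and Vcp, the ATPase that pulls proteins from the ER, -0.60. Both were close to the fold change required, and Selenos was not called without WT day 2 replicate 3 (-0.57), nor Vcp without WT day 0 replicate 3 (-0.58) or WT day 2 replicate 2 (-0.57).

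Of the other ER stress sensors and proteases 1 of 9 fell and 2 rose, against 1 and 4 on the common sum. Creb3 had -1.08. Creb3l1, a relative of Atf6, had 0.73 and Mbtps1, the site 1 protease that cuts ATF6, 0.63, the latter not called without WT day 0 replicate 1 or 3 (0.57 each). Heat shock proteins of the cytosol and mitochondria, which belong to another stress response, fell in 9 of 12 (7 of 12 on the common sum), and none rose. Their median log2 fold change of -1.27 was the lowest of the lists, and Hspb1, a small heat shock protein, went from 251 ± 47.1 to 36.3 ± 4.59 FPKM (SD, n = 3), a log2 fold change of -2.78, while Hspa1b, the inducible HSP70, had -1.72.

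**Figure D3:**
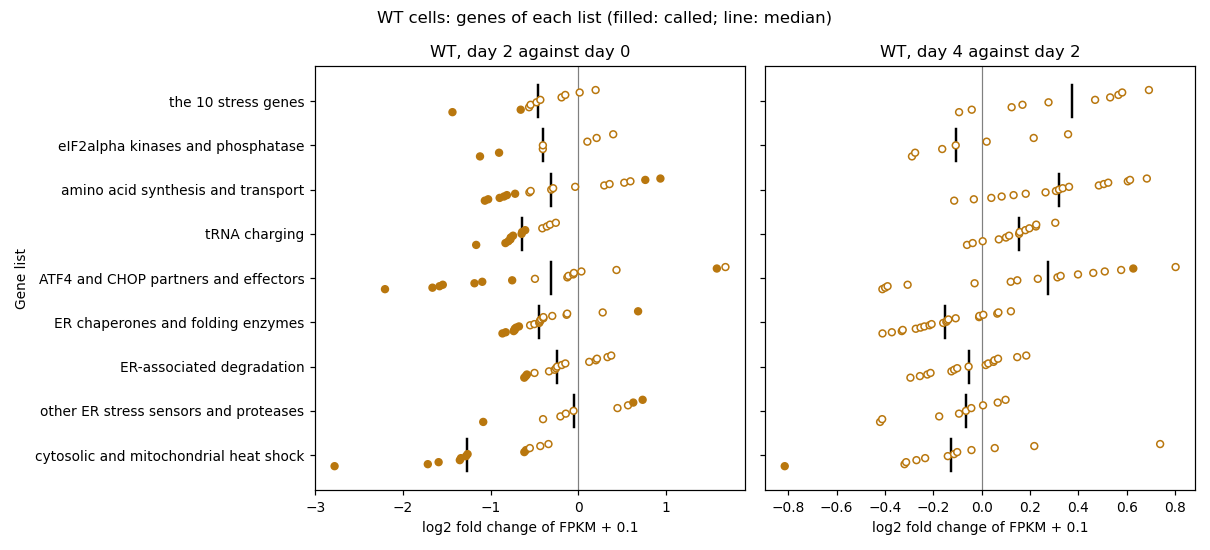
Log2 fold change of FPKM + 0.1 (x axis) of the tested genes of each list (y axis) in WT cells, from day 0 to day 2 (left) and from day 2 to day 4 (right), with 1 point per gene, filled where called, and a line at the median. Heat shock genes have the lowest median on the left, -1.27, and almost no gene of any list is called on the right.

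In Per1-/- cells the genes of these lists called lower from day 0 to day 2 were 9 of 13 for tRNA charging, 8 of 17 for amino acid supply, 2 of 7 for eIF2alpha, 7 of 16 for the partners of ATF4 and CHOP, 9 of 20 for ER chaperones, 3 of 15 for degradation, 1 of 9 for other sensors, and 10 of 12 for heat shock. Those called higher were 0, 1, 0, 2, 0, 1, 2, and 0. On the common sum the counts in Per1-/-, in the same order of lists, were 2, 2, 1, 5, 1, 0, 0, and 7 lower and 0, 3, 2, 2, 2, 3, 4, and 0 higher. With the Per2-/- label 8, 6, 2, 7, 6, 0, 1, and 8 were called lower and 0, 2, 0, 1, 0, 0, 1, and 0 higher, and on the common sum 1, 2, 1, 6, 0, 0, 1, and 7 lower and 0, 3, 1, 1, 1, 2, 4, and 0 higher. The heat shock genes, the partners of ATF4 and CHOP, and the tRNA charging genes thus had more calls lower than higher on both scales in every genotype. Of the tRNA charging genes at most 2 of 13 were called lower on the common sum. The ER chaperones had more lower than higher with FPKM and more higher than lower on the common sum. For the list of degradation genes with the Per2-/- label 12 of 15 had an unadjusted p under 0.05, beside 8953 of 14932 tested genes (limma). The background shares given above for the same comparisons hold for the FPKM counts and not for those on the common sum. No share of all tested genes called is given on the common sum, where most calls were higher. The counts there are descriptions only. The lists were not tested as sets.

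From day 2 to day 4 the 8 lists held few calls, at most 1 per list with FPKM. In WT Jdp2, a leucine zipper repressor, rose with 0.63 (adjusted p = 0.0482, limma), and Hspb1 fell by 0.81 on the log2 scale (adjusted p = 0.0313, limma). Both calls were lost in several alternatives. Jdp2 was not called without WT day 2 replicate 1 (0.69) or 3 (0.46), or without WT day 4 replicate 1 (0.55) or 2 (0.50). Hspb1 was not called when any 1 WT library of day 2 (-0.72, -0.83, and -0.90) or day 4 (-0.86, -0.78, and -0.80) was left out. The other 6 lists had 0 calls in WT by limma and by voom weights, with 4 of 7 eIF2alpha genes, 5 of 17 amino acid genes, 0 of 13 tRNA genes, 10 of 20 chaperones, 4 of 15 degradation genes, and 2 of 9 sensors at an unadjusted p under 0.05. Of all 14932 tested genes 2977 were under 0.05 in the same comparison (limma). The median was 0.32 for amino acid supply and 0.27 for the partners of ATF4 and CHOP, and -0.15 for ER chaperones. In Per1-/- no list gene was called with FPKM by limma or by voom weights, and with the Per2-/- label Slc1a5, a glutamine transporter, rose with 0.76 (adjusted p = 0.0409, limma) and Jdp2 rose with 0.72 (adjusted p = 0.022, limma). Slc1a5 was chosen after its values were seen. The replicate block was also used in WT and Per1-/-, where the numbers were taken to pair the libraries. With it 2 partners of ATF4 and CHOP rose in WT in place of 1, and 1 heat shock gene fell in Per1-/- in place of 0. The counts of the other lists were those without the block. With the Per2-/- label, where not every pair had an r over 0.1, the block gave 3 partners higher in place of 1, 2 amino acid genes higher in place of 1, and 1 heat shock gene lower in place of 0. On the common sum Jdp2 was not called in WT (0.60, adjusted p = 0.0514, limma), 1 heat shock gene fell in Per1-/- and 1 with the label, and no amino acid gene was called with the label.

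In 6 of the 9 groups 1 replicate was the highest for 8 or 9 of the 10 genes. In WT on day 0, replicate 3 was the highest of its group for 9 of the 10 genes. In the same way 1 replicate led its group for 8 genes in Per1-/- day 0 (replicate 1), the Per2-/- label on day 0 (replicate 2) and day 2 (replicate 1), Per1-/- day 2 (replicate 3), and WT day 4 (replicate 2). In the other 3 groups no replicate led for as many, with replicates 1, 2, and 3 the highest for 3, 6, and 1 genes in WT day 2, 2, 4, and 4 in Per1-/- day 4, and 4, 3, and 3 with the Per2-/- label on day 4. WT day 2 replicate 3 and replicate 2 of the Per2-/- label on day 2 were the lowest for 8 genes each. In the former Trib3 was at 8.74 FPKM beside 19.6 and 23.0 FPKM, and Chac1 at 6.07 FPKM beside 13.2 and 14.6 FPKM.

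**Figure D4:**
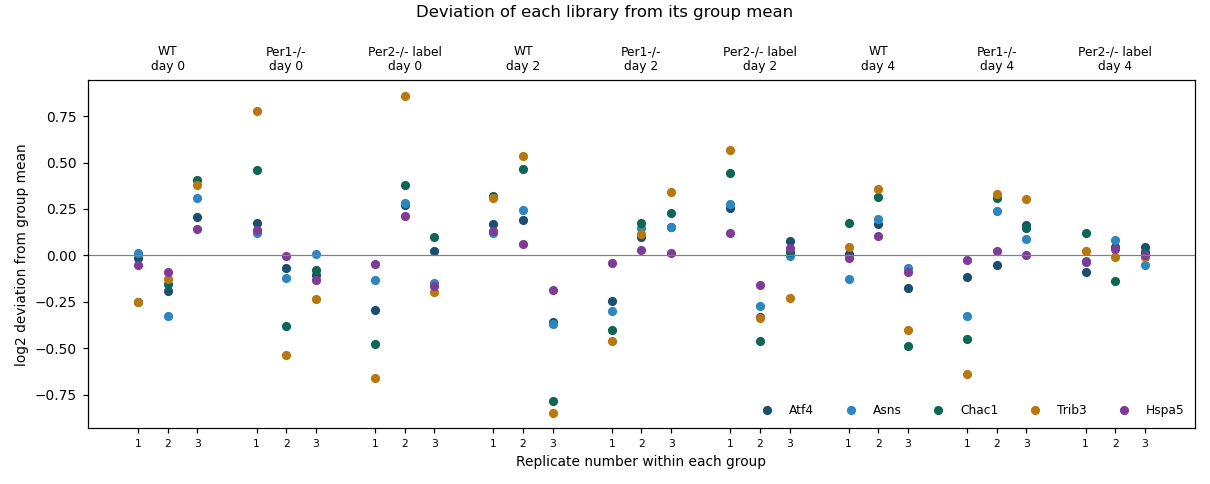
Deviation of each library from its group mean in log2(FPKM + 0.1) (y axis) for 5 of the genes, with the 9 groups side by side and replicate numbers on the x axis, which have no order. The points of a library tend to lie on the same side of 0, with Trib3 and Chac1 spread widest and Hspa5 narrowest.

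After the group means were subtracted, 8 of the 10 genes were positively related to one another. The relations are described by Pearson's r over 27 libraries in 9 groups, with no test, and all values of a library share its cells, depth, and scaling. Trib3 and Chac1 had an r of 0.94, Atf4 and Chac1 0.89, Atf4 and Trib3 0.86, and Atf4 and Asns 0.85. Of the ER genes, Hspa5 and Xbp1 had 0.86, Hspa5 and Herpud1 0.86, and Herpud1 and Xbp1 0.82. Atf4 and Hspa5 had 0.82. Atf6 and Atf3 stood apart, with negative r to all of the other 8 genes, from -0.11 (Asns and Atf3) to -0.59 (Herpud1 and Atf3), and 0.37 with each other.

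**Figure D5:**
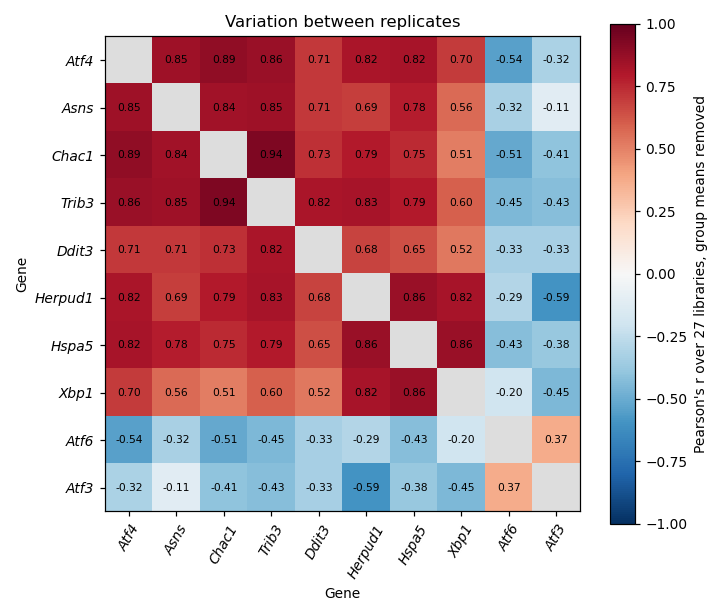
Pearson's r (color and printed value) between each pair of the 10 genes (both axes) over 27 libraries after the group means were subtracted. A block of 8 genes has positive values, up to 0.94 for Trib3 and Chac1, and the rows of Atf6 and Atf3 are negative except with each other.

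Among all 14932 tested genes, the 20 with the highest r to each stress gene over these deviations were counted. For Asns 2 of the 20 were stress genes and 12 belonged to the other pathway lists, among them Sars, Eprs, and Aars, which charge tRNA with serine, with glutamate and proline, and with alanine. For Atf4 the counts were 4 and 9, with Mthfd2, a mitochondrial folate enzyme, and Shmt2 among them, for Trib3 3 and 6, and for Chac1 2 and 6. For Hspa5 they were 3 and 4, including the ER chaperone Hsp90b1 and the disulfide isomerases Pdia6 and P4hb. For Ddit3 they were 1 and 3, for Xbp1 2 and 2, and for Herpud1 1 and 3. Neither Atf3 nor Atf6 had a gene of either kind among its 20. The pathway lists made up 97 of the tested genes, or 0.65%.

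The genes most like each stress gene over all 27 libraries, where differences between days enter as well, were Mthfd2 for Atf4 (r = 0.95), Cyb5r1 for Ddit3 (0.96), Surf4 for Hspa5 (0.98), Clint1 for Xbp1 (0.93), Slc1a4 for Trib3 (0.93) and for Herpud1 (0.90), Trib3 for Chac1 (0.91), Atf4 for Asns (0.90), Syk for Atf3 (0.83), and Stk4 for Atf6 (0.81). Syk is a kinase of immune receptors. These values are descriptions over libraries that fall into 3 days.

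Other measures moved with the same deviations. The summed fibroblast markers had an r of 0.72 with Chac1, 0.71 with Trib3, 0.64 with Herpud1, and -0.50 with Atf3 over the 27 libraries. The summed macrophage markers had 0.52 with Atf3, -0.51 with Trib3, and -0.53 with Hspa5, and library size had at most 0.46 (Xbp1). Their part in the shared variation was not tested.

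The labels call the cells induced neurons on every day. Of 12 neuron markers 3 or 4 were at a group mean of 0.5 FPKM or more on day 0, 7 or 8 on day 2, and 11 on day 4, and of the 10 tested ones 6 rose and 1 fell in WT from day 0 to day 2 (7 and 0 on the common sum) and 5 rose from day 2 to day 4 (4 on the common sum, 6 with the block). Dcx rose by a log2 fold change of 4.01 and Elavl3 by 3.66 in the first interval (2.43 in the second), Snap25 rose by 3.04 in the second, and Stmn2 fell by 1.57 on the log2 scale in the first. The sizes of these rises start from levels near 0 and depend on the pseudocount and scale, from 1.44 to 6.73 for Dcx, from 1.12 to 8.26 for Elavl3 in the first interval, and from 1.43 to 3.60 for Snap25 over the alternatives, all called. The fall of Stmn2 was not called on the common sum (-1.15, adjusted p = 0.0523, limma) or without WT day 0 replicate 2 (-1.19, adjusted p = 0.0759, limma). All 12 fibroblast markers were present on every day. In WT 6 rose and 3 fell from day 0 to day 2 (7 and 3 on the common sum), with Lum at 4.08, Dcn at 2.46, Thy1 at -1.79, and S100a4 at -3.19, and their sum ranged from 3180 to 3628 FPKM on day 0 and from 4326 to 6025 FPKM on day 4. Of 15 macrophage markers 4 rose in WT from day 0 to day 2 (9 on the common sum), with Aif1 at 2.62 and Mrc1 at 1.82, and none from day 2 to day 4 by limma, where 6 had an unadjusted p under 0.05, the block called 1, and voom weights called 2. Of all 14932 tested genes 2977 had an unadjusted p under 0.05 from day 2 to day 4 in WT (limma). The neuron markers and the fibroblast sum moved with the days, and their part in the changes of the stress genes was not tested.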

How the data were processed

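Poly-A RNA of 27 libraries, in 9 groups of 3 replicates, was measured by nondirectional paired-end RNA-seq, so reads of a gene and an antisense partner cannot be told apart. Per the submitters' processing notes and the methods, the authors aligned reads to GRCm38 with HISAT2 2.0.5, counted them with featureCounts 1.5.0-p3, and deposited FPKM per gene. Each FPKM value, multiplied by its gene length and divided by 1 unit per library that was found from the values, gave whole fragments (100% within 0.01), and 15815013 to 24264097 fragments per library lay on genes. The FPKM of a library do not sum to a common value.

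Here log2(FPKM + 0.1) was fitted for 14932 genes with limma 3.58.1 (R 4.3.3, a mean-variance trend, 9 groups), with p adjusted per comparison over all tested genes. Calls required an adjusted p no higher than 0.05 and a change of 0.58 or more on the log2 scale, in either direction. An exact permutation test of 3 against 3 cannot go below p = 0.1 and was not used for calls. The labels call the replicates biological, but the sources do not say whether each was a separate culture or pool of embryos, so p-values measure the spread between these libraries. The procedure was tested on simulated data.

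The genes, lists, and motifs were chosen with earlier results of these data known. Named were the 10 genes and, for each other list, up to 2 called genes at either end of the WT time comparisons. The 8 pathway lists and the fibroblast, neuron, and macrophage markers were written by hand, and Derl3, Ern2, Rbfox3, and Syp were too low to test. Most-like genes were named by the highest Pearson's r.

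Replicate numbers come from the labels. Libraries of a genotype with the same number deviated together over days 2 and 4 in WT (r from 0.127 to 0.196) and over both intervals in Per1-/- (r from 0.14 to 0.294), where every pair was over 0.1, and were taken as paired there. In the other comparisons not every pair was over 0.1. Of 54 pairs with different numbers within a genotype 0 were over 0.1. Between genotypes of a day 10 of 54 such pairs were, up to 0.338, so an r over 0.1 does not by itself show pairing. With the Per2-/- label over days 2 and 4 the r were 0.138, 0.282, and 0.0353. Python 3.11.15 with pandas, numpy, and matplotlib was used for description and plots.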

Additional observations from a re-analysis of the deposited data

How the results depend on the processing

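Between genotypes and for differences in change, the count of called stress genes stayed at 0 in all alternatives run. Over time it moved as follows. With no filter on low values it was 0 for Per1-/- from day 2 to day 4, and with the Per2-/- label 1 from day 0 to day 2 and 0 from day 2 to day 4. On the common sum of FPKM it was 1 in each genotype from day 0 to day 2 and 0 with the Per2-/- label from day 2 to day 4. With only the groups compared it was 1 (Atf3) in WT and 0 with the Per2-/- label from day 2 to day 4. Voom weights gave 1 from day 0 to day 2 and 0 from day 2 to day 4 with the Per2-/- label, and a pseudocount of 1 gave 1 from day 0 to day 2 there. With no minimum fold change it was 4 in WT, 5 in Per1-/-, and 6 with the Per2-/- label from day 0 to day 2. At an unadjusted p under 0.05 there were 5, 5, and 7 of the 10 in the same order. Of all 14932 tested genes 9541, 9546, and 8953 were under 0.05 (limma). The shares of all tested genes called that are given above belong to the main fit. With a replicate block it was 2 with the Per2-/- label from day 2 to day 4, where not every pair had an r over 0.1 and 1051 genes in place of 606 were called, and no other call among the 10 genes changed. Leaving out single libraries gave 1 to 4 (WT) and 2 to 4 (both other groups) from day 0 to day 2, and 0 to 1 in Per1-/- and with the Per2-/- label from day 2 to day 4. The cause of these differences was not tested.

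The common sum turned the sign, from day 0 to day 2, of Chac1 (0.24 in WT, 0.22 in Per1-/-, 0.13 with the Per2-/- label), Atf6 (0.28, 0.33, and 0.13 in the same order), Herpud1 (0.22 in Per1-/-, 0.20 with the label), and Atf3 (0.082 in Per1-/-), and from day 2 to day 4 of Hspa5 (-0.12) and Atf6 (-0.057) in Per1-/- and Xbp1 with the label (-0.0046). Medians of all genes from day 0 to day 2 were 0.42, 0.38, and 0.32 there in the order WT, Per1-/-, and label.

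Leaving out single libraries turned the sign within these ranges. From day 0 to day 2 Trib3 ranged from -0.071 to 0.62 in WT, -0.078 to 0.58 in Per1-/-, and -0.29 to 0.47 with the label. Chac1 ranged from -0.42 to 0.20, -0.36 to 0.059, and -0.44 to 0.032, and Herpud1 from -0.091 to 0.19, -0.27 to 0.00011, and -0.25 to 0.061. From day 2 to day 4 Asns in WT ranged from -0.015 to 0.29, Hspa5 from -0.13 to 0.023 in WT and -0.011 to 0.024 in Per1-/-, and Atf6 with the label from -0.053 to 0.061. The difference of Trib3 between the changes of the label and WT ranged from -0.024 to 0.67.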
